A study of Mus musculus with 12 samples.

Results

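The 9 replication-independent histone variant genes H1f0, H1fx, H2afz, H2afv, H2afx, H2afy, H2afj, H3f3a and H3f3b were followed through terminal erythroid differentiation. They were chosen by gene name from 29838 genes, and 8 of the 9 passed the filter, which asked for 1 FPKM or more in 3 or more libraries. FPKM corrects the fragments of a gene for its length and for the size of the library, so values of different genes are on a scale per length. H1fx did not pass, and its values are given without a test. RNA was sequenced from wild-type erythroblasts of male C57BL/6 mice, 8 weeks old, sorted from bone marrow, with 3 libraries at each of 4 stages and no treatment. All cells were CD45-, and the gate also left out cells with CD11b or GR1, surface proteins of myeloid cells. Pro (proerythroblasts) were gated as CD44 high and Ter119 low, and Baso, Poly and Ortho (basophilic, polychromatic and orthochromatic erythroblasts) were separated by CD44 and cell size among Ter119+ cells. For Ortho replicates 2 and 3 the cell type field names erythroblasts in general, and the titles put them in Ortho. The labels do not say whether libraries of a stage came from separate animals, so p-values measure the spread between these libraries, which may be technical. The sequencing depth is unknown.

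Canonical core histones are made mainly during DNA replication, whereas variant histones are made from genes outside the histone clusters and can be put into chromatin at any time in the cell cycle. H3.3 replaces H3 at active genes and at telomeres, H2A.Z marks promoters and enhancers, H2A.X is phosphorylated around DNA breaks, macroH2A carries a large extra domain and is linked to silent chromatin, and H1.0 is a linker histone of cells leaving the cell cycle. During terminal erythroid differentiation the nucleus condenses after a few last divisions and is then expelled.

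The erythroid label was checked first. All 6 late erythroid markers tested rose in Ortho against Pro, and the share of summed FPKM from hemoglobin genes went from 6.98 to 10.7% in Pro to 47.2 to 52.6% in Ortho. Of 4 early markers, 3 rose as well (Cd34, Gata2 and Myb) and 0 fell, and the general erythroid markers Gata1, Klf1 and Epor fell. Markers of other cells also moved with stage. The 9 neutrophil markers summed to 7233 to 9030 FPKM in Pro and 14216 to 17631 FPKM in Ortho, and all 9 were above 1 FPKM in every stage, with S100a8 and S100a9 the highest. The 8 B cell markers summed to 63.1 to 110.2 FPKM in Pro and 160 to 206 FPKM in Ortho. The 8 macrophage markers summed to a median of 29.4, 40.9, 49.0 and 65.2 FPKM from Pro to Ortho, and 3 of the 4 tested rose in Ortho against Pro (Cd68, Csf1r and Adgre1). Of 6 T and NK cell markers the 3 tested, Nkg7, Klrd1 and Gzma, rose in Ortho against Pro. The T cell genes Cd3d, Cd3e and Cd3g did not pass the filter, with means under 1 FPKM in every stage. Of megakaryocyte and platelet markers 1 of 6 rose and 5 fell. Their part in the results below was not tested. In bulk samples, fewer cells of a type and less RNA per cell cannot be told apart.

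Both H3.3 genes and both H2A.Z genes are shown first by sequence, because each pair makes the same or nearly the same protein from different messages. H3f3a and H3f3b differ at 95 of 408 coding bases (76.7% identity) and at 0 of 136 residues, and the longest run of bases they share is 23. H2afz and H2afv differ at 80 of 384 coding bases (79.2% identity) and at 3 of 128 residues, and their longest shared run is 14 bases. The first 150 coding bases from GENCODE M21 transcripts follow, 5′ to 3′, with capitals at the bases that differ within the pair.
H3f3a: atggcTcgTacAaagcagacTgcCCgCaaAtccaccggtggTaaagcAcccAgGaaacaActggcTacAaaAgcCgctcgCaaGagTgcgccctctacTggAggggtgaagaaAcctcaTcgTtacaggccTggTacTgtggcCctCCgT
H3f3b: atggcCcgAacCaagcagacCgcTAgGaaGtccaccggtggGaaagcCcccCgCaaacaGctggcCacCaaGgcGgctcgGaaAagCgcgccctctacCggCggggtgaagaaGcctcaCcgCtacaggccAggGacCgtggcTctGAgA
H2afz: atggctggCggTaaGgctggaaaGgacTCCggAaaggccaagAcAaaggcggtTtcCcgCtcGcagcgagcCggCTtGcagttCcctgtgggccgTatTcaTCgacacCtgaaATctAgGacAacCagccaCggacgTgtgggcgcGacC
H2afv: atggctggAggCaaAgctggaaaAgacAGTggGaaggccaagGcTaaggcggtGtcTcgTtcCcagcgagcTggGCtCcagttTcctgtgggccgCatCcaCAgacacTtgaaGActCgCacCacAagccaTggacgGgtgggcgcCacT
The stretch shown holds 32 such positions in the H3.3 pair and 34 in the H2A.Z pair.

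On mm10 with GENCODE M21, H1f0 spans chr15:79028450-79030504 on the plus strand, H1fx chr6:87980421-87981637 on the minus strand, H2afx chr9:44334694-44336077 on the plus strand and H2afj chr6:136808244-136810074 on the plus strand. Each of these 4 genes has 1 exon. The others have introns. H2afz lies at chr3:137864487-137866922 on the plus strand with 5 exons, H2afv at chr11:6427229-6444443 on the minus strand with 5, H2afy at chr13:56073619-56136361 on the minus strand with 9, H3f3a at chr1:180800832-180813943 on the minus strand with 4 and H3f3b at chr11:116021912-116027962 on the minus strand with 6 in the transcript used. The values are sums over whole genes.

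By level per length, H3f3a led the list in the mean of every stage, although in Pro replicates 1 and 2 it was below both H2afz and H3f3b. H2afz was next in Pro, H2afx in Poly and H3f3b in Ortho, while H1f0 and H1fx were the lowest in all 4 stages. The plot of FPKM by stage shows each library.

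**Figure D1:**
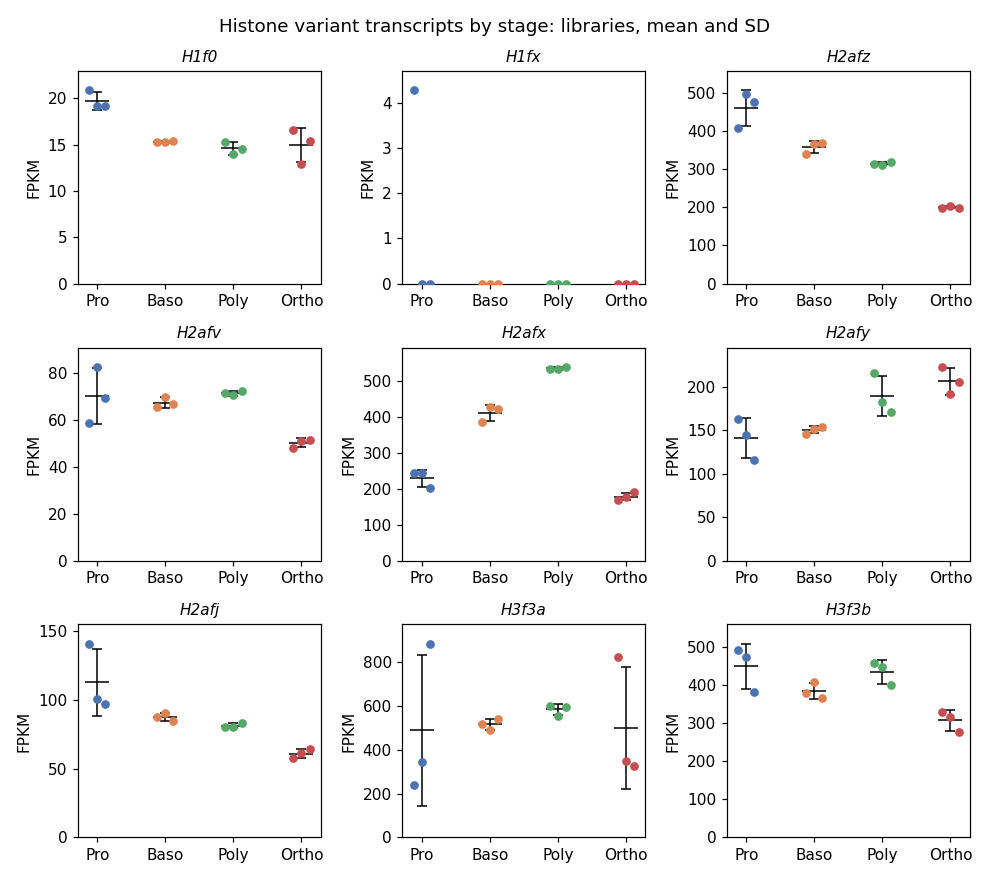
FPKM of each histone variant gene (y axis, linear, from 0) in Pro, Baso, Poly and Ortho; points are libraries, the bar is the mean and the whiskers are the SD (n = 3), drawn for all genes but H1fx. H2afx peaked in Poly at 536 FPKM, H2afz went from 459 FPKM in Pro to 199.9 FPKM in Ortho, and H3f3a varied most between libraries of Pro and of Ortho.

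For each comparison, 12994 genes were tested with limma on log2(FPKM + 1), so a fold change understates the change of low genes. A gene was called where the adjusted p was under 0.05 and the log2 fold change at least 1 in either direction. Adjusted p-values are Benjamini-Hochberg values over all genes tested. Comparisons that share a stage share its libraries. An FPKM depends on what else its library holds. The median of all genes tested was -0.23 (log2) in Baso against Pro, -0.20 in Poly against Pro and -0.42 in Ortho against Pro, but 0.034 in Poly against Baso and -0.078 in Ortho against Poly. Of the genes called in Ortho against Pro, 21.0% were higher with the values as deposited, 6.20% with all libraries rescaled to the same sum, 63.3% with hemoglobin genes left out and 61.6% with libraries centred on their medians. The matching shares were 17.6, 8.76, 53.7 and 57.5% in Baso against Pro, 21.9, 10.5, 64.1 and 56.9% in Poly against Pro, and 18, 9.44, 28.6 and 31.0% in Ortho against Poly. Each fold change below was computed again under these 3 other scalings.

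H2afx, the H2A form that is phosphorylated next to DNA breaks, had the largest fold change of the 8 tested genes. Its FPKM was 243, 244 and 202 in Pro, 386, 428 and 422 in Baso, 534, 534 and 540.3 in Poly and 168, 178 and 190.1 in Ortho. No library of one stage overlapped another stage, and the order was Poly, Baso, Pro, Ortho. The mean rose from 229.9 ± 23.9 (SD, n = 3) in Pro to 412 ± 22.9 in Baso and 536 ± 3.67 in Poly, and was 179 ± 11 in Ortho. H2afx exceeded its Pro level in Baso by 0.84 on the log2 scale (SE 0.085, limma adjusted p = 1.16e-05), which is under the fold needed for a call, and it was called higher in Poly against Pro (1.22, SE 0.085, limma adjusted p = 6.22e-07). From Baso to Poly the rise was 0.38 (SE 0.085, limma adjusted p = 0.0188), and this value lost its threshold when Baso replicate 1 or 3 or any 1 of the Poly libraries was left out, with adjusted p of 0.0505 to 0.0612. In Ortho against Poly H2afx was called lower by limma (-1.58, SE 0.085, adjusted p = 1.13e-07), and 1.22% of all genes tested had a lower fold change. Under the 3 other scalings the first of these steps stayed between 0.66 and 1.16 and the last between -1.77 and -1.43. In Ortho against Pro the value was -0.36 (limma adjusted p = 0.00242) but turned to 0.13 with hemoglobin genes left out and 0.038 after median centring, so the direction of that comparison depended on the scaling.

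H2afz, the H2A.Z gene with the higher level here, was lower at each later stage. Its FPKM was 407, 497 and 475 in Pro, 340.4, 366 and 367 in Baso, 313, 312 and 318 in Poly and 198, 203 and 199 in Ortho. Libraries of neighbouring stages did not overlap. The mean went from 459 ± 46.8 to 358 ± 15.1, 314 ± 3.54 and 199.9 ± 2.60 FPKM (SD, n = 3). H2afz was called lower in Ortho against Pro (-1.19, SE 0.077, limma adjusted p = 1e-07), and the fold change was -1.56 with the same sum, -0.79 after median centring and -0.70 with hemoglobin genes left out, the last 2 under the fold needed for a call. It was also lower in Ortho than in Poly by limma (-0.65, adjusted p = 5.26e-05) and in Baso than in Pro (-0.36, adjusted p = 0.00221). In Baso against Pro the value was -0.039 with hemoglobin genes left out and -0.059 after median centring, without passing the threshold. From Baso to Poly H2afz gave -0.19 (limma adjusted p = 0.134). With replicate number as a block over all 12 libraries the limma adjusted p was 0.105, and without Pro replicate 1 and with no block it was 0.0357. A block model that also left out Pro, added after the data were seen, gave 0.0229.

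H2afv makes the second H2A.Z form and showed a different course. Its FPKM was 58.7, 82.6 and 69.3 in Pro, 65.4, 69.8 and 67.0 in Baso, 71.3, 70.5 and 72.5 in Poly and 47.9, 51.2 and 51.4 in Ortho. The first 3 stages overlapped in part, and every Ortho library was below every other library. H2afv was lower in Ortho than in Poly by limma (-0.50, SE 0.10, adjusted p = 0.00264). In Ortho against Pro it gave -0.46 (limma adjusted p = 0.00135), and 0.022 with hemoglobin genes left out. Because a ratio within a library does not move with its scaling, the 2 genes were also compared directly. The ratio of H2afz to H2afv FPKM was 6.93, 6.01 and 6.85 in Pro, and its stage means were 6.60 ± 0.51, 5.31 ± 0.145, 4.40 ± 0.0214 and 3.99 ± 0.136 from Pro to Ortho (SD, n = 3). No 2 stages overlapped. Permuting the stages in all 15400 possible ways, an exact test, gave p = 6.49e-05, the smallest it can give (adjusted over 3 ratios p = 0.000195).

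H2afy encodes macroH2A1. Its FPKM was 163, 144 and 116 in Pro, 146, 151 and 154 in Baso, 216, 183 and 171 in Poly and 223, 191 and 205 in Ortho. Baso libraries lay within the range of Pro, whereas every Poly and Ortho library was above every Pro and Baso library. The mean was 141 ± 23.3 FPKM in Pro and 206 ± 15.8 FPKM in Ortho (SD, n = 3). H2afy was higher in Ortho than in Pro by 0.56 (SE 0.12, limma adjusted p = 0.0013), with 1.05 when hemoglobin genes were left out and 0.19 (limma adjusted p = 0.215) with the same sum for all libraries. In Poly against Pro it was higher by 0.43 (limma adjusted p = 0.0079), and 0.25 (adjusted p = 0.117) with the same sum. Poly against Baso gave 0.33 (limma adjusted p = 0.0982), and adjusted p = 0.0618 with the replicate block over all 12 libraries. The added block model without Pro gave 0.0277. Summed neutrophil, macrophage and B cell markers were also higher in Ortho than in Pro, as given above, and their part in the H2afy values was not tested.

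H2afj makes an H2A form close in sequence to the canonical one. Its FPKM was 141, 100.7 and 96.8 in Pro, 87.6, 90.8 and 84.7 in Baso, 80.6, 80.3 and 83.1 in Poly and 57.6, 61.1 and 63.9 in Ortho. Each stage lay below the one before it, with no overlap. It was lower in Ortho than in Pro by limma (-0.86, SE 0.12, adjusted p = 3.94e-05), and between -1.23 and -0.37 under the other scalings. The single steps were smaller. Baso against Pro gave -0.34 (limma adjusted p = 0.0277), and this adjusted p was 0.0617 without Baso replicate 1 and 0.0760 without Baso replicate 3. Ortho against Poly gave -0.41 (limma adjusted p = 0.021), and the adjusted p was 0.0514 to 0.0744 without any 1 Poly library or without Ortho replicate 1 or 2. With hemoglobin genes left out these steps had adjusted p of 0.875 and 0.144.

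The H3.3 genes differed in how well their libraries matched. H3f3b gave 492, 474 and 382 FPKM in Pro, 380.1, 407 and 366 in Baso, 458, 446 and 399 in Poly and 329, 315 and 277 in Ortho. Every Ortho library was below every library of the other stages. H3f3b was lower in Ortho than in Poly by limma (-0.50, SE 0.11, adjusted p = 0.00374) and in Ortho than in Pro (-0.54, adjusted p = 0.000623), although the second value was -0.052 with hemoglobin genes left out and -0.15 after median centring. Poly against Baso gave 0.18 (limma adjusted p = 0.301), and adjusted p = 0.123 with the replicate block over all 12 libraries, or 0.0435 in the added block model without Pro. Baso against Pro gave -0.22 (limma adjusted p = 0.1), and the adjusted p was 0.0141 without Pro replicate 3.

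H3f3a gave 238, 343 and 884 FPKM in Pro, 516, 492 and 540 in Baso, 601, 557 and 596 in Poly and 823, 351 and 326 in Ortho. Pro replicate 3 and Ortho replicate 1 were the 2 highest of the 12 libraries, while the other libraries of these stages were the lowest. The SD within stages was 0.61 on the log2 scale, against a median of 0.13 over 597 genes with a mean FPKM of at least 100, and 3 of the 597 varied at least as much. Pro replicate 3 was at least 2 times both other Pro libraries for 2 of these 597 genes, H3f3a included, and Ortho replicate 1 was so among Ortho libraries for 1, H3f3a itself. Pro replicate 1 lay at least 2 times above both other Pro libraries for 3 of the 597 genes and at least 2 times below both for 14. No difference of H3f3a between stages passed the test, with a fold change of 0.13 in Ortho against Pro (95% interval -0.81 to 1.06, limma adjusted p = 0.794), which was -0.24 with the same sum, -0.28 without Pro replicate 1, -0.011 without Pro replicate 2 and -0.30 without Ortho replicate 1. Without Pro replicate 3, H3f3a was called higher in Poly against Pro (1.03, limma adjusted p = 0.0187). Reads of H3f3a can also fall on close copies. H3f3c, annotated as a processed pseudogene, shares a run of 267 bases with it, and 2 further pseudogenes share 155 and 110 bases, so the H3f3a value is uncertain. H3f3c itself gave means of 17.0, 28.2, 30.1 and 15.8 FPKM in Pro, Baso, Poly and Ortho.

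As both genes make H3.3, their FPKM were added. From Pro to Ortho the sum was 938 ± 288, 900.2 ± 4.77, 1019 ± 34.3 and 807 ± 300.1 FPKM (SD, n = 3). H3f3a made up 32.6 to 69.8% of it in Pro, 54.8 to 59.6% in Baso, 55.5 to 59.9% in Poly and 52.7 to 71.5% in Ortho. The ratio of H3f3b to H3f3a was 1.29 ± 0.822 in Pro and 0.747 ± 0.0746, 0.745 ± 0.0674 and 0.715 ± 0.274 in the following stages, with an exact permutation p of 0.668 (n = 3 a stage). Without Pro replicate 3 the adjusted p was 0.0195.

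Of the linker histones, H1f0 gave 20.9, 19.2 and 19.2 FPKM in Pro, 15.2, 15.3 and 15.4 in Baso, 15.3, 14.0 and 14.5 in Poly and 16.6, 13.0 and 15.4 in Ortho. Every Pro library was above every later one, and the later stages overlapped. H1f0 was lower in Baso than in Pro by limma (-0.35, SE 0.088, adjusted p = 0.00571), in Poly than in Pro (-0.41, adjusted p = 0.00155) and in Ortho than in Pro (-0.38, adjusted p = 0.00202). With hemoglobin genes left out these values were -0.047, -0.082 and 0.085, so the direction in Ortho against Pro depended on the scaling. H1fx was listed at 0 in 11 libraries and at 4.28 FPKM in Pro replicate 1. Against the summed FPKM of the linker genes of the histone cluster, H1f0 had a ratio of 0.557 ± 0.144, 0.290 ± 0.0688, 0.184 ± 0.038 and 0.244 ± 0.0298 from Pro to Ortho (SD, n = 3), and the exact permutation test gave p = 0.00136 (adjusted p = 0.00205). Of 4 cluster linker genes tested, 1 rose and 1 fell in Ortho against Pro, where 22.7% of all genes were higher and 53.2% lower. Hist1h1c rose (0.94, limma adjusted p = 0.00351), Hist1h1a fell from 3.32 to 1.26 FPKM (-0.91, limma adjusted p = 0.000196), and Hist1h1b gave 2.06 and 1.26 FPKM (limma adjusted p = 0.0651). Hist1h1c, the highest of them, had means of 30.1, 48.4, 75.3 and 57.4 FPKM in the 4 stages. No other cluster linker gene had a stage mean above 3.32 FPKM, so the ratio mainly set H1f0 against Hist1h1c. The study's methods do not say how RNA was selected. The part of that selection in the values of cluster genes, and so in this ratio, was not tested.

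**Figure D2:**
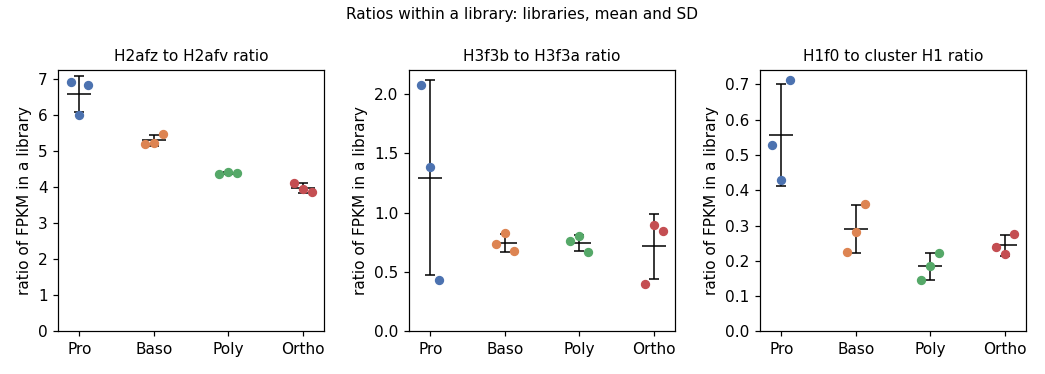
Ratio of FPKM within each library (y axis, linear, from 0) by stage for 3 pairs; points are libraries, bars are means and whiskers the SD (n = 3). H2afz to H2afv fell from 6.60 to 3.99 with no overlap, whereas H3f3b to H3f3a ranged from 0.432 to 2.07 within Pro.

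Counted together by limma, the 8 tested genes were read against the share of all genes. In Baso against Pro 1 was higher and 3 were lower at an adjusted p under 0.05, where 14.9% of all genes were higher and 42.1% lower, and 0 were called (1.82% of all genes were called higher and 8.54% lower). In Poly against Baso 1 was higher and 0 lower (6.58 and 5.77% of all genes), and 0 were called (0.0616 and 0.454%). In Ortho against Poly 0 were higher and 5 lower (4.43 and 21.7%), with 0 called higher (1.05%) and 1, H2afx, called lower (4.81%). In Ortho against Pro 1 was higher and 6 were lower (22.7 and 53.2%), with 0 called higher (6.33%) and 1, H2afz, called lower (23.8%). In Poly against Pro 2 were higher and 3 lower (23.3 and 42.7%), with 1, H2afx, called higher (3.59%) and 0 called lower (12.8%). At an unadjusted p under 0.05 the counts were the same except in Poly against Baso, with 2 higher and 1 lower, and no other tool was run. No test of the list was made.

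**Figure D3:**
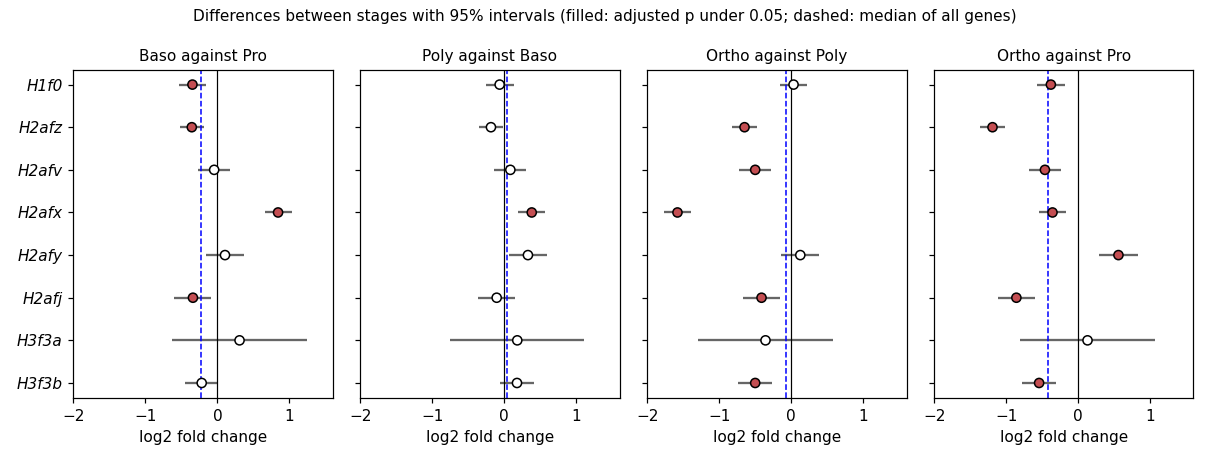
Log2 fold changes (x axis) of the 8 tested genes with 95% intervals in 4 comparisons; filled points had a limma adjusted p under 0.05, and the dashed line is the median of all genes tested. H2afx lay at 0.84 in Baso against Pro and at -1.58 in Ortho against Poly, while H2afy (0.56) was the filled point above 0 in Ortho against Pro.

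**Figure D4:**
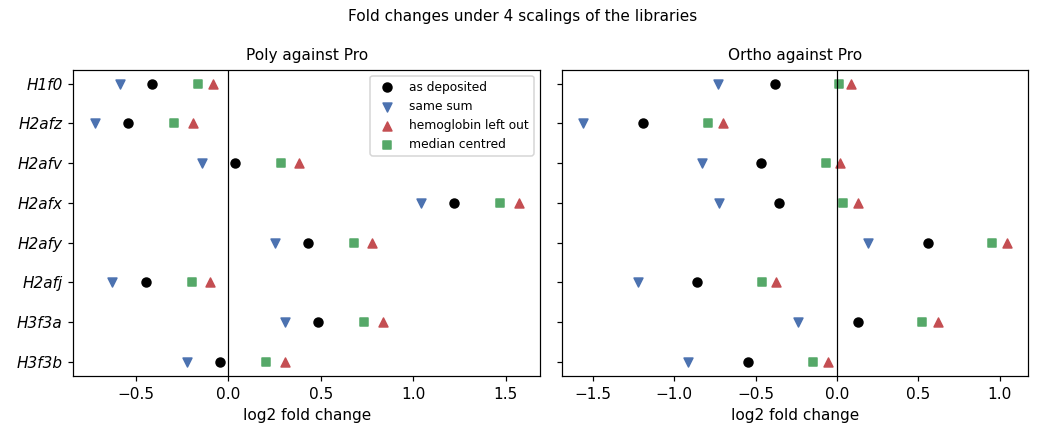
Log2 fold changes (x axis) of the same genes against Pro with the values as deposited and under 3 other scalings of the libraries. In Ortho against Pro H2afz stayed below 0 (-1.56 to -0.70) and H2afy above 0 (0.19 to 1.05), while H1f0, H2afv, H2afx and H3f3a lay on both sides of 0.

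Upstream sequence was read for the members in RefSeq's table (GRCm38.p6), which held 8 of the 9; H2afx was not matched. The 250 bases before the start were searched on both strands for CCAAT, the core bound by the factor NF-Y, for the GATA-type words AGATAA and TGATAA, for CCNCNCCC, a form of the CACCC word of Kruppel-like factors, for the E2F-type words TTTCGCGC and TTTGGCGC, and for AAACACA, where N is any base. CCAAT was found 4 times in H2afv, 4 in H3f3b, 3 in H2afj, 2 in H2afz and 1 time in H3f3a, and not in H1f0, H1fx or H2afy. It lies in 34.5% of 27025 promoters of the same length. CCNCNCCC (45.6% of promoters) was found 9 times in H2afy, 6 in H3f3a, 2 each in H1f0 and H1fx, and 1 each in H2afj and H2afz. Overlapping matches were each counted, and most of those in H2afy lie in a single G-rich stretch. The counts are therefore not numbers of separate sites. AAACACA (6.22%) was found 1 time, in H3f3a. None of the 8 windows held AGATAA (10.3%), TGATAA (8.16%), TTTCGCGC (0.255%) or TTTGGCGC (0.437%). The starts are those of RefSeq and can differ from GENCODE. The windows of H2afy, H3f3a and H3f3b lie inside the GENCODE spans given above, and those of H1fx and H2afj overlap them in part. H2afz is shown because it was called in Ortho against Pro, and H2afv, picked after its values were seen, because it makes the other H2A.Z form and holds 4 CCAAT words. Capitals mark CCAAT or its reverse complement, ATTGG. The windows are H2afz at chr3:137864237-137864486 (plus strand), where GENCODE also places an antisense transcript, and H2afv at chr11:6444444-6444693 (minus).
H2afz: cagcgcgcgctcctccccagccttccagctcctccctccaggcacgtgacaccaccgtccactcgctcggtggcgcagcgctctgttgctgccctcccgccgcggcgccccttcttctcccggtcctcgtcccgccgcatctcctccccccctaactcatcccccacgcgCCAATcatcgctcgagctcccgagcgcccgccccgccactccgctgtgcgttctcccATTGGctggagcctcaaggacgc
H2afv: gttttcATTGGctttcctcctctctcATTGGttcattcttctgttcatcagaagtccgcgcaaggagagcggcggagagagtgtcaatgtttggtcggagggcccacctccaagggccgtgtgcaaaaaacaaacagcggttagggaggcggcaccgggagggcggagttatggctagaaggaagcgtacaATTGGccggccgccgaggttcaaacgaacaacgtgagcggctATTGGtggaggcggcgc
A match of letters is a description of the window, and the part of any factor was not tested.

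The machinery around these histones was described from lists of genes, by counts at a limma adjusted p under 0.05 in Ortho against Pro, with the values as deposited and then rescaled. Of all genes tested, 22.7% were higher, 53.2% lower and 23.8% called lower, and with hemoglobin genes left out 34.3, 34.8 and 8.88%. Of 8 genes of H3.3 deposition, 0 rose and 5 fell, 4 of them called, and the list median was -0.84 against -0.42 for all genes. With hemoglobin genes left out 4 fell and 2, Cabin1 and Ubn2, were higher, with a median of -0.37 against -0.028, and 1 was called lower there and 1 after median centring. Dek, a chaperone that binds H3.3, had the highest level per length of the list and fell from 562 ± 186 to 167 ± 17.6 FPKM (-1.69, SE 0.20, n = 3 a stage). Hira, the core of the complex that deposits H3.3 at genes, fell from 34.4 to 14.4 FPKM (-1.19), and Asf1a, which hands H3-H4 to that complex, fell from 33.6 to 12.9 FPKM (-1.31). Cabin1, a further subunit, gave 30.6 and 32.2 FPKM (limma adjusted p = 0.418), and Atrx, which works at telomeres, gave 31.0 and 26.8 FPKM (limma adjusted p = 0.273).

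Of 18 genes of H2A.Z exchange, 0 rose and 15 fell, 6 of them called, with a median of -0.85. With hemoglobin genes left out 7 fell and 2, Ep400 and Ing3, were higher, with a median of -0.40. The 6 called lower became 1 there and 1 after median centring, so the count depended on the scaling. Of all genes 53.2% fell with the values as deposited and 34.8% with hemoglobin genes left out. Ruvbl1 and Ruvbl2, the helicases shared by the exchange complexes, fell from 61.9 to 17.6 FPKM (-1.74) and from 62.9 to 25.8 FPKM (-1.25), and both fell under every scaling tried. Anp32e, which removes H2A.Z, had means of 170.0, 164, 168 and 81.5 FPKM in the 4 stages, and was called lower in Ortho against Poly (-1.04, SE 0.11, limma adjusted p = 1.67e-05). Brd8, a subunit of an exchange complex, was called lower there too (-1.02, SE 0.086, limma adjusted p = 3.23e-06), with means of 42.8, 42.2, 42.3 and 20.4 FPKM. Neither was called there with hemoglobin genes left out or after median centring. Yeats4, a subunit that reads modified histones, gave 51.5 FPKM in Pro and 26.8 in Ortho (-0.92, limma adjusted p = 0.00329), but did not pass with hemoglobin genes left out.

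For H2A.X signalling, 1 of 9 genes rose and 7 fell, 4 of them called, with a median of -0.95, and 1 rose and 6 fell, 3 of them called, with hemoglobin genes left out. Of all genes 53.2 and 34.8% fell under these 2 scalings. Mdc1, the reader of phosphorylated H2A.X, fell from 38.6 to 11.5 FPKM (-1.65), and Baz1b, a kinase of H2A.X, fell from 74.4 to 31.2 FPKM (-1.23). The ubiquitin ligases Rnf8 and Rnf168, which act after Mdc1, fell from 22 to 7.60 FPKM (-1.49) and from 25.8 to 8.72 FPKM (-1.46). Trp53bp1, named after its values were seen as the gene that rose, had means of 4.59, 13.4, 8.11 and 7.90 FPKM in the 4 stages. Its mean was thus highest in Baso, where it was called higher than in Pro (1.36, limma adjusted p = 0.000698). In Ortho against Pro it gave 0.67 (limma adjusted p = 0.0278), and did not pass with all libraries set to the same sum.

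All 8 genes that place new H3 and H4 at replication fell in Ortho against Pro under each of the 4 scalings, 7 of them called with the values as deposited and 4 with hemoglobin genes left out or after median centring, and the median was -1.64. Mcm2, a replicative helicase subunit that also holds histones, fell from 215 to 44.0 FPKM (-2.26), Chaf1b, of the CAF-1 complex, from 63.0 to 12.2 FPKM (-2.28) and Nasp, which stores H3-H4, from 134 to 29.98 FPKM (-2.11). Rbbp4, a further CAF-1 subunit, had means of 96.7, 93.4, 95.5 and 44.8 FPKM in the 4 stages. Asf1b, an H3-H4 chaperone, had 76.6, 91.4, 115 and 34.9 FPKM and was called lower in Ortho against Poly (-1.69, limma adjusted p = 4.92e-07). All 11 chaperones of H2A-H2B and linker histones also fell under each scaling, 8 of them called with the values as deposited, 3 with hemoglobin genes left out and 4 after median centring, with a median of -1.20 as deposited. Anp32b had 622, 588, 549.7 and 219.9 FPKM in the 4 stages, whereas Npm1 had 471, 168, 163 and 165 FPKM and Set 295, 129, 131 and 130.0 FPKM. For Npm1 and Set the lower level was thus present from Baso on. Ssrp1 and Supt16, the subunits of the chaperone FACT, fell from 239.9 to 71.7 FPKM (-1.73) and from 94.0 to 25.8 FPKM (-1.81).

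**Figure D5:**
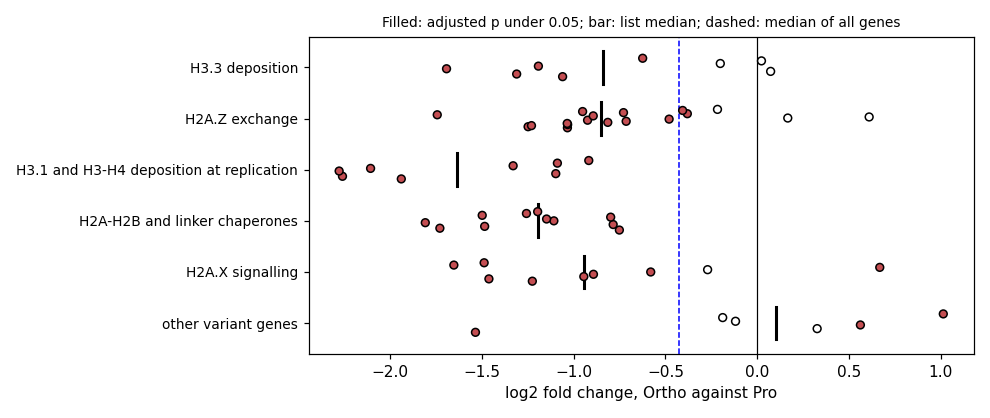
Log2 fold changes in Ortho against Pro (x axis, values as deposited) of genes in 6 lists; each point is a gene, filled where the limma adjusted p was under 0.05, the short bar is the list median and the dashed line the median of all genes (-0.42). The list medians ran from -1.64 for deposition at replication to 0.10 for the list labelled other variant genes. That list also holds genes that are not variants, and its median turned to -0.19 with all libraries set to the same sum.

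Of 17 other histone genes listed, not all of them variants, 12 were in the table and 6 passed the filter. The 6 include H3f3c, annotated as a processed pseudogene, and the H2B and H4 genes below. Cenpa, the centromeric H3, had 153, 179.9, 119 and 52.2 FPKM in the 4 stages and was called lower in Ortho against Pro (-1.54, limma adjusted p = 3.61e-08). Hist3h2ba, an H2B gene outside the large clusters, had 8.85, 40.0, 52.3 and 11.5 FPKM, and was called higher in Baso against Pro (2.07, limma adjusted p = 8.58e-06) and lower in Ortho against Poly (-2.13, limma adjusted p = 7.59e-06). Hist4h4, an isolated H4 gene, gave 0.379 FPKM in Pro and 1.79 in Ortho (1.01, limma adjusted p = 1.19e-05). Of the 6 genes 5 rose in Baso against Pro and 4 fell in Ortho against Poly, where the medians were 0.89 and -0.96. Of all genes tested 14.9% were higher in the first comparison and 21.7% lower in the second. With all libraries set to the same sum 4 rose and 4 fell, where 8.89 and 32.3% of all genes did. How RNA was selected is not given in the study's methods, and the part of that selection in these values was not tested.

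Genes whose log2(FPKM + 1) followed each member most closely over the 12 libraries were taken from tested genes with a mean FPKM of at least 10. For H2afx these were Mpp2, Sipa1 and Mxd3 (Pearson r 0.991, 0.988 and 0.986), for H2afz Gtpbp1, Cdc45 and Uimc1 (0.993, 0.992 and 0.990), for H2afj Mrpl51, Sltm and Sart1 (0.991, 0.985 and 0.983), for H1f0 Lrpap1, Men1 and Esd (0.970, 0.967 and 0.963) and for H2afy Idh1, Cebpd and Psap (0.966, 0.963 and 0.957). H2afv (Taf5l, 0.947) and H3f3b (4930579G24Rik, 0.927) had weaker matches, and the best match of H3f3a was Atg7 at 0.804. Among the members, H2afz and H2afj were the pair most alike (r = 0.860) and H2afz and H2afy the least (r = -0.825). The 12 libraries share 4 stages and their scaling, so these values describe the pattern over stages only.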

How the data were processed

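RNA of 12 libraries, 3 at each of 4 stages, was analysed. The deposited values are FPKM that the authors calculated per gene and library, after trimming with cutadapt and Trimmomatic, alignment to mm10 with HISAT2, SAMtools and counting with featureCounts, per the submitters' processing notes. Tool versions, the annotation release and the FPKM tool are not given in the sources used here. The study's methods describe Geek lysis and KAPA libraries, and the labels Trizol and NEBNext. The authors' own comparisons used DESeq2, a test of counts that FPKM do not allow. FPKM do not give the number of fragments, so depth is unknown and precision comes from the spread between libraries.

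1 repeated identifier was dropped, leaving 29838 genes. limma 3.58.1 (R 4.3.3) was fitted per gene (all 12 libraries, variance trend, pseudocount 1, 1 FPKM or more in 3 or more libraries, two-sided, Benjamini-Hochberg) and ratios by exact permutation in Python 3.11.15. A test of 3 against 3 by permutation cannot go below 0.1. The limma fit was run on simulated data. The permutation code was run only on made-up values of fully separated groups, whose result was fixed in advance. The members, lists and rules were chosen with earlier results of these data known. By rule, all 9 members were named, with the 3 most abundant genes of each list, up to 2 more called genes of largest change, and the 3 genes most alike to each member. Libraries with the same replicate number deviated together among Baso, Poly and Ortho (r 0.156 to 0.319) but not with Pro (0.00524 to 0.0968), on the values alone. Poly against Pro and a block model of Baso, Poly and Ortho were added after the data were seen. The planned ratio of H1f0 to H1fx could not be computed, as H1fx was listed at 0. The result of 1 marker gene is not reported here.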

Additional observations from a re-analysis of the deposited data

How the results depend on the processing

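Of 896 values of the 40 member fold changes under the alternatives, 870 kept their direction and 26 turned, 5 of these for a change with an adjusted p under 0.05. With the same sum for all libraries, H2afy turned in Baso against Pro (-0.073) and Ortho against Poly (-0.063), H1f0 in Ortho against Poly (-0.14), H2afv in Poly against Pro (-0.14) and H3f3a in Ortho against Pro (-0.24), where 2 genes were called lower. With hemoglobin genes left out, H2afv (0.27) and H3f3b (0.10) turned in Baso against Pro, H1f0 (0.085), H2afv (0.022) and H2afx (0.13) in Ortho against Pro and H3f3b (0.31) in Poly against Pro. Median centring turned H2afv (0.25) and H3f3b (0.079) in Baso against Pro, H1f0 (0.016) and H2afx (0.038) in Ortho against Pro and H3f3b (0.21) in Poly against Pro. Under each of these 2 scalings 1 gene was called higher in Baso against Pro and 0 were called lower in Ortho against Pro, and with hemoglobin left out 1 was called higher there. By adjusted p alone, 1 was higher and 3 lower in Baso against Pro, 1 higher in Poly against Baso, 5 lower in Ortho against Poly, 1 higher and 6 lower in Ortho against Pro, and 2 higher and 3 lower in Poly against Pro.

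Leaving out 1 library gave values on both sides of 0 for H3f3a (-0.096 to 0.85), H2afv (-0.17 to 0.078) and H2afy (-0.025 to 0.21) in Baso against Pro, H1f0 (-0.040 to 0.13) in Ortho against Poly, H3f3a in Ortho against Pro (-0.30 to 0.67) and H2afv (-0.082 to 0.16) and H3f3b (-0.15 to 0.027) in Poly against Pro. Without Pro replicate 3, 2 genes were called higher in Poly against Pro. The log2 ratio of H3f3b to H3f3a in Ortho against Pro ran from -1.33 to -0.20 (main -0.67), with Pro replicate 3 left out at the low end. The cause of these changes was not tested. With the replicate block over all 12 libraries, H3f3b in Baso against Pro passed (adjusted p = 0.0229), the ratio of H2afz to H2afv kept its call (adjusted p = 0.00521), and H2afz, H2afy and H3f3b in Poly against Baso did not pass (0.105, 0.0618 and 0.123). These 3 passed in the added block model without Pro (0.0229, 0.0277 and 0.0435), and no other fold change of a member changed its side of the threshold under either block model. Depth is unknown, so no counting error is given.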
